A study of Arabidopsis thaliana with 12 samples.

Results

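Chloroplasts keep a small genome of their own, and in *Arabidopsis thaliana* it encodes core subunits of the photosynthetic machinery. Described here are the 46 plastid-encoded genes of photosynthesis and of the NADH dehydrogenase-like (NDH) complex, taken as the probe sets that the platform's table assigns to chloroplast genes alone and whose symbols start with *psa*, *psb*, *pet*, *atp* or *ndh* or are *rbcL*, *ycf3* or *ycf4*. All 46 RefSeq plastid symbols of this kind had 1 probe set each, of 77 plastid probe sets and 22746 probe sets in all after controls were left out. They comprise 5 genes of photosystem I, 15 of photosystem II, 6 of the cytochrome b6f complex, 6 of the ATP synthase, 11 of the NDH complex, the Rubisco large subunit gene *rbcL*, and the photosystem I assembly genes *ycf3* and *ycf4*. The choice used gene names and no measured value.

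Affymetrix ATH1 arrays measured the RNA of whole Ws seedlings in 4 groups, each with 3 biological replicates. Untreated Ws seedlings received the solvent DMSO alone, as did homozygous *ddm1* seedlings of a T-DNA insertion line in the same ecotype, which lack a chromatin remodeling protein needed to keep transposons methylated. The other groups were Ws seedlings given 5-aza-2′-deoxycytidine (5-AC), an inhibitor of DNA methylation, at 20 mg/L in DMSO, and Ws seedlings given trichostatin A (TSA), an inhibitor of histone deacetylases, at 2.5 mg/L in DMSO. All were germinated in liquid medium with sucrose under constant light, received drug or solvent 24 h later and had the medium renewed after 5 days. The labels give an age of 10 days at harvest and the study's methods a later one. Each drug was given at 1 dose, and *ddm1* was represented by 1 line.

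In the thylakoid membrane, photosystem II takes electrons from water, the cytochrome b6f complex passes them on, and photosystem I lifts them to the level needed to reduce NADP+, while the proton gradient so formed drives the ATP synthase. The NDH complex returns electrons from the stromal side to the plastoquinone pool in cyclic flow around photosystem I. In seedlings most of these genes are read by a bacterial-type RNA polymerase whose core is itself plastid-encoded, many of them lie in shared transcription units, and each complex is completed by subunits imported from the cytosol.

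The values were log2 intensities after gcRMA, which corrects the background by probe sequence and gives the arrays a common distribution. Array medians lay between 4.92 and 5.03. Whole arrays correlated with the others of their group on average at r = 0.961 to 0.987, the lowest being 5-AC replicate 3. That array also correlated with the Ws arrays at r = 0.807, against 0.759 and 0.761 for the other 5-AC arrays. All 46 genes passed the filter on low values that left 17129 probe sets for testing. A probe set's level is not comparable with another's, so only differences of 1 gene between groups were tested. In whole seedlings, fewer green cells or plastids and less RNA per plastid cannot be told apart. The priming of the RNA for labeling is not given in the sources used here, and plastid transcripts lack the long stable poly(A) tails of nuclear ones, so the values stand for the RNA that the labeling reached. Green tissue was represented by 1 matched nuclear marker, the Rubisco activase gene *RCA*, and root by 3, the beta-glucosidase gene *PYK10* and the root hair expansin genes *EXPA7* and *EXPA18*. In Ws *RCA* lay at 13.5 to 13.9, and none of the 4 markers lay near the floor of the arrays.

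After 5-AC every one of these genes was lower. All 46 fell (limma, adjusted p under 0.05), where 26.3% of all tested probe sets were lower. The median change of the 46 was -2.46 on the log2 scale, beside 0.05 over all tested probe sets. The fall reached at least 2-fold for 43 genes, at least 4-fold for 30, at least 8-fold for 9 and at least 16-fold for 2, *ndhA* and *rbcL*. In no case did a 5-AC array overlap a Ws array, where 29.3% of all tested probe sets were lower without overlap.

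**Figure D1:**
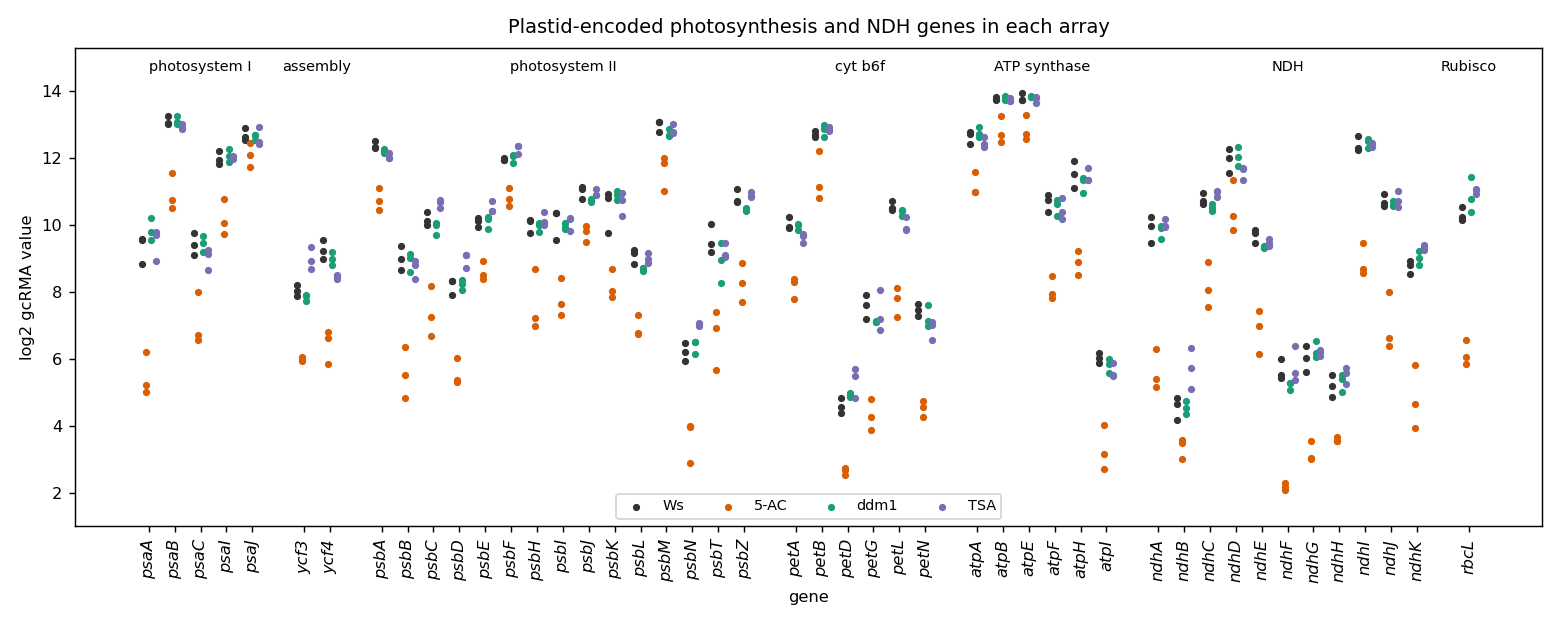
Log2 gcRMA value (vertical axis) of each of the 46 genes (horizontal axis, grouped by complex) in each array; every point is 1 array, and color gives the group, with 3 arrays each of Ws, 5-AC, *ddm1* and TSA. The 5-AC points lie below all Ws points of the same gene for 46 of 46 genes, while *ddm1* and TSA points lie near those of Ws.

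The largest falls among single genes were those of *ndhA*, *rbcL* and *ndhK*. For *ndhA*, which encodes a membrane subunit of the NDH complex, the log2 values were 9.46, 10.23 and 9.98 in Ws and 5.15, 5.41 and 6.29 after 5-AC. The lowest Ws array thus lay more than 3 log2 units above the highest 5-AC array. The change was -4.27 (SE 0.28, adjusted p = 5e-07), a fall by a factor of 19.3. The *rbcL* values, for the large subunit of the enzyme that fixes carbon dioxide, were 10.25, 10.55 and 10.15 in Ws and 6.07, 5.84 and 6.58 after 5-AC. Its change was -4.16 (SE 0.26, adjusted p = 3.6e-07), a fall by a factor of 17.8. *ndhK*, a subunit of the arm of the NDH complex that faces the stroma, measured 8.82, 8.92 and 8.53 in Ws and 4.66, 3.94 and 5.82 after 5-AC, a change of -3.95 (SE 0.36). In each of these genes replicate 3 was the highest of the 5-AC arrays, and it still lay below every Ws array.

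In photosystem I all 5 genes fell, with a median change of -2.18. The reaction center proteins PsaA and PsaB bind the chlorophylls that carry out charge separation. *psaA* measured 8.85, 9.57 and 9.54 in Ws and 5.00, 5.21 and 6.22 after 5-AC (change -3.84, SE 0.35). *psaB* measured 13.03, 13.25 and 13.05 in Ws and 10.76, 10.50 and 11.54 after 5-AC (change -2.18, SE 0.22). The *psaB* probe set lay near the ceiling of the Ws arrays, where values compress, so the pair cannot be ranked. PsaC carries iron-sulfur clusters on the stromal side, and its gene changed from 9.10, 9.75 and 9.40 in Ws to 6.72, 6.56 and 8.001 after 5-AC (-2.33, SE 0.34). The small subunit genes *psaI*, near the ceiling in Ws, and *psaJ* changed by -1.81 and -0.59. *psaJ* had the smallest measured change of the 46 genes, from 12.89, 12.54 and 12.64 in Ws to 12.10, 11.74 and 12.46 after 5-AC (SE 0.20, adjusted p = 0.025), and its highest 5-AC array lay just under its lowest Ws array. It was near the ceiling in Ws and after 5-AC, so the size of its fall is not settled. Of the assembly factors, *ycf3* measured 7.89, 8.20 and 8.03 in Ws and 5.94, 6.01 and 6.06 after 5-AC, where their SD of 0.06 was the smallest of the 46 genes (change -2.04, SE 0.16). *ycf4* measured 9.0, 9.57 and 9.22 in Ws and 6.62, 5.86 and 6.80 after 5-AC (change -2.83, SE 0.23).

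The 15 photosystem II genes had a median change of -2.32 and ranged from -3.42 to -1.15. *psbA* and *psbD* encode the D1 and D2 proteins of the reaction center. The *psbA* values were 12.32, 12.51 and 12.30 in Ws and 10.73, 10.46 and 11.11 after 5-AC (change -1.61, SE 0.16). The *psbD* values were 7.92, 8.34 and 8.32 in Ws and 5.38, 5.31 and 6.02 after 5-AC (change -2.63, SE 0.21). D1 is the subunit that light damages and that is replaced most often in working thylakoids. Both genes had 5-AC arrays well clear of the Ws arrays. The *psbA* probe set was near the ceiling in Ws, so its change cannot be ranked against that of *psbD*. The inner antenna proteins CP47 and CP43 are encoded by *psbB* and *psbC*. *psbB* fell from 8.65, 9.37 and 8.98 to 5.52, 4.85 and 6.36 (change -3.42, SE 0.34), the largest change in this complex. *psbC* fell from 9.99, 10.38 and 10.13 to 7.26, 6.67 and 8.17 (change -2.80, SE 0.30). The cytochrome b559 genes *psbE* and *psbF* were among the photosystem II genes that changed least, at -1.49 and -1.15, with *psbJ* at -1.24 and *psbM* at -1.35, of which *psbF* and *psbM* were near the ceiling in Ws. The other low-molecular-weight subunit genes, *psbH*, *psbI*, *psbK*, *psbL*, *psbT* and *psbZ*, together with *psbN*, which is needed to assemble the complex, changed by -2.90 (*psbT*) to -2.14 (*psbL*).

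All 6 cytochrome b6f genes fell, with a median change of -2.39. Cytochrome f, encoded by *petA*, changed by -1.86. *petB*, for cytochrome b6, measured 12.68, 12.81 and 12.64 in Ws and 11.14, 10.81 and 12.21 after 5-AC (change -1.32, SE 0.28). *petD*, for subunit IV, measured 4.39, 4.83 and 4.58 in Ws and 2.70, 2.74 and 2.54 after 5-AC (change -1.94, SE 0.20). The single-helix subunit genes *petG*, *petL* and *petN* changed by -3.25, -2.84 and -2.94, the more negative values in this complex. However, *petB* was near the ceiling in Ws, where values compress. After 5-AC *petD* lay at percentiles 21.7 to 26.8 of its arrays, where a further fall might not be seen. Small and large subunit genes therefore cannot be ranked.

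The 6 ATP synthase genes fell as well, with a median change of -2.03. *atpA* and *atpB* encode the subunits of the catalytic head, and *atpE* its epsilon subunit. *atpA* measured 12.42, 12.79 and 12.72 in Ws and 10.98, 10.98 and 11.58 after 5-AC (change -1.47, SE 0.19). *atpB* measured 13.77, 13.81 and 13.74 in Ws and 12.68, 12.48 and 13.25 after 5-AC (change -0.97, SE 0.17, adjusted p = 6e-04). *atpE* measured 13.74, 13.96 and 13.74 in Ws and 12.72, 12.57 and 13.30 after 5-AC (change -0.95, SE 0.17, adjusted p = 0.00075). The last pair, like *psaJ*, was near the ceiling in both groups, and their small changes carry the same limit. In Ws *atpA* was near the ceiling too. The membrane sector genes *atpF*, *atpH* and *atpI* changed by -2.60, -2.64 and -2.71. They were not near the ceiling, so they cannot be ranked against the genes of the head.

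The 11 NDH genes had a median change of -2.85 and a wide range, from -4.27 for *ndhA* to -1.19 for *ndhB*. The genes *ndhA* to *ndhG* encode subunits of the membrane arm. Of these, *ndhB* lies in the inverted repeat, so that its 2 copies share 1 probe set, and it measured 4.17, 4.84 and 4.66 in Ws and 3.02, 3.59 and 3.50 after 5-AC (SE 0.29, adjusted p = 0.0051). *ndhF* measured 5.42, 5.53 and 5.99 in Ws and 2.18, 2.299 and 2.08 after 5-AC (change -3.46, SE 0.24). Its 5-AC values lay below the 25th percentile of each array, where a further fall would not be seen. By that measure it was the only one of the 46 near the floor, with *petD* close to it. The other membrane arm genes *ndhC*, *ndhD*, *ndhE* and *ndhG* changed by -2.60, -1.46, -2.85 and -2.81. In the stromal arm, where electrons enter, *ndhI*, *ndhJ* and *ndhK* changed by -3.50, -3.70 and -3.95. The fourth gene of that arm, *ndhH*, measured 4.86, 5.51 and 5.19 in Ws and 3.67, 3.56 and 3.54 after 5-AC, a smaller change of -1.59 (SE 0.20) with closely spaced 5-AC arrays.

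**Figure D2:**
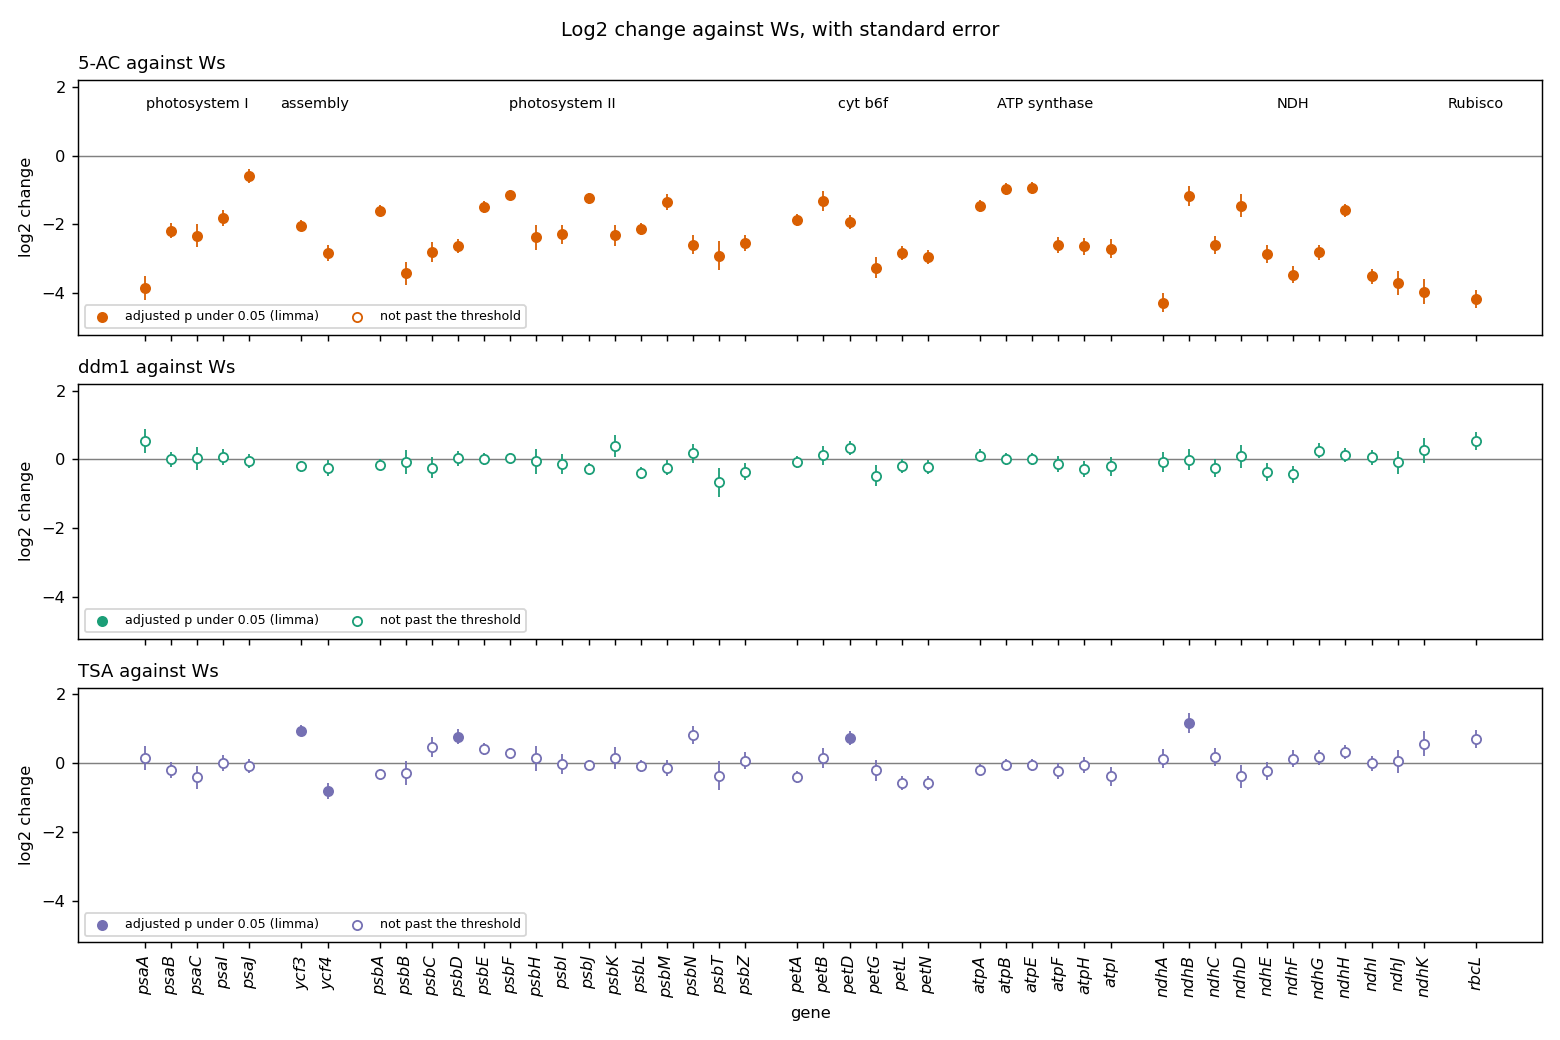
Log2 change against Ws (vertical axis) of each of the 46 genes (horizontal axis, by complex) after 5-AC (top), in *ddm1* (middle) and after TSA (bottom); bars are standard errors from limma, and filled points have an adjusted p under 0.05. All 46 points are filled and below 0 for 5-AC, none is filled for *ddm1*, and 5 are filled for TSA, 4 above and 1 below 0.

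The size of the fall differed among the 5-AC arrays, while its presence did not. The median of the 46 genes minus the Ws mean was -2.52, -2.86 and -1.97 in 5-AC replicates 1, 2 and 3, and in each of them 46 of 46 genes lay below all 3 Ws arrays. Replicate 3 was the highest 5-AC array for 39 of the 46 genes. The SD of a gene over replicates had a median of 0.45 after 5-AC, against 0.21 in Ws, 0.15 in *ddm1* and 0.17 after TSA. Leaving out any 1 array of Ws or 5-AC left 45 or 46 genes lower, with median changes of -2.79 to -2.18. The gene lost was *psaJ*, without 5-AC replicate 1, 5-AC replicate 2 or Ws replicate 1.

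Part of the range of changes went with the level of the probe set. In Ws 11 genes lay above the 99th percentile of every array (*psbA*, *atpA*, *psbM*, *psaB*, *atpE*, *atpB*, *psaI*, *psbF*, *psaJ*, *petB* and *ndhI*), where array values compress, and *atpE*, *atpB* and *psaJ* stayed there after 5-AC. The 15 genes with the highest Ws values, from 10.8 to 13.8, had a median change of -1.46. The 16 genes of the middle range and the 15 of the lowest had medians of -2.70 and -2.71. Across the 46 genes, which share arrays and are not independent, the change and the Ws level had r = 0.31 and rho = 0.43. Without the 11 genes near the ceiling, r was -0.10 and rho 0.06 over 35 genes, and their median change was -2.63. The order of the complexes also changed without those genes, with medians of -3.08 for photosystem I (2 genes), -2.46 for photosystem II (12), -2.84 for cytochrome b6f (5), -2.64 for the ATP synthase (3) and -2.83 for NDH (10). *ndhI* was an exception near the ceiling, with a change of -3.50. Whether saturation set the smaller values of the brightest probe sets was not tested.

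Many of these genes are transcribed together, in units known from the plastid genetics of land plants, and members of a unit did not always change alike after 5-AC. A probe set can also report the long precursor RNA of its unit. In the unit that starts with *psbB*, the changes from the 5′ to the 3′ end were -3.42 for *psbB*, -2.90 for *psbT*, -2.38 for *psbH*, -1.32 for *petB* and -1.94 for *petD*. The spread was 2.103, or 1.48 without *petB*, which was near the ceiling in Ws. At the upper end of that narrower spread, *petD* lay at percentiles 21.7 to 26.8 after 5-AC, where a further fall might not be seen. In the unit of NDH genes and *psaC*, *ndhH* at its 5′ end changed by -1.59. The next gene, *ndhA*, had the largest fall of all, and the changes from there on were -3.50 for *ndhI*, -2.81 for *ndhG*, -2.85 for *ndhE*, -2.33 for *psaC* and -1.46 for *ndhD*. The spread in this unit, 2.82, was the widest. Its upper end, *ndhD*, lay at percentiles 98.96 to 99.52 of the Ws arrays, just short of the ceiling as defined here. The next value, that of *ndhH*, came from a probe set that was not near the ceiling. It was a low one, with a mean of 5.18 in Ws and percentiles of 37.45 to 39.27 after 5-AC. This limits how large a fall it could show.

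**Figure D3:**
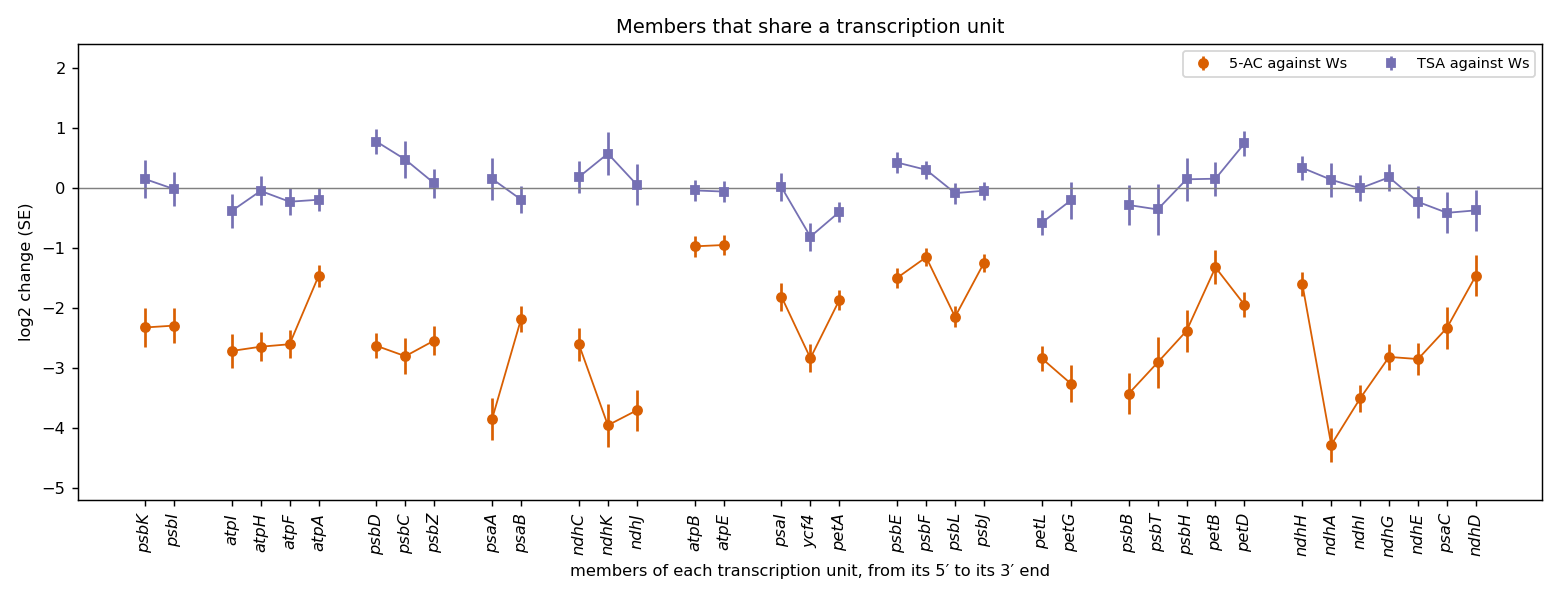
Log2 change against Ws (vertical axis) of genes that share a transcription unit (horizontal axis, each unit from its 5′ to its 3′ end) after 5-AC (circles) and TSA (squares), with standard errors; lines join the genes of a unit. After 5-AC the unit from *ndhH* to *ndhD* spans -4.27 to -1.46. *atpB* and *atpE*, near the ceiling in Ws and after 5-AC, lie at -0.97 and -0.95.

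In the unit of membrane sector and head genes of the ATP synthase, *atpI*, *atpH* and *atpF* changed by -2.71, -2.64 and -2.60, and *atpA* at the 3′ end by -1.47. The *atpA* probe set was near the ceiling in Ws and the other 3, which spread over 0.11, were not. Closely matched values stood in *psbK* and *psbI* (-2.32 and -2.29). They also stood in *psbD*, *psbC* and *psbZ* (-2.63, -2.80 and -2.54), where the reading frames of *psbD* and *psbC* overlap. The values of *atpB* and *atpE*, whose coding regions adjoin, lay close together as well (-0.97 and -0.95). Both probe sets were near the ceiling in Ws and after 5-AC, so whether these 2 genes changed alike is not settled. Wider spreads stood in *ndhC*, *ndhK* and *ndhJ* (1.35), none of them near the ceiling in Ws, in *psaI*, *ycf4* and *petA* (1.02, or 0.97 without *psaI*) and in *psbE*, *psbF*, *psbL* and *psbJ* (0.99, or 0.90 without *psbF*). *psaA* and *psaB* differed by 1.66, with *psaB* near the ceiling. *petL* and *petG* differed by 0.42. Differences in change between genes, within a unit or a complex, were not tested.

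In *ddm1* seedlings no gene passed the threshold in limma (0 of 46, where 1.57% of all tested probe sets were called). The median change was -0.06, beside -0.03 over all tested probe sets, and all 46 values lay within 2-fold of Ws, from -0.66 to 0.55. At an unadjusted p under 0.05, 1 gene was lower, *psbL*, a small subunit of photosystem II (-0.40, adjusted p = 0.73), and 0 were higher, where 3.2% and 3.51% of all tested probe sets were lower and higher. The t-test named in the methods also called 0.

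The lowest *ddm1* change was that of *psbT*, a small photosystem II subunit, with 9.48, 8.27 and 8.96 in *ddm1* and 9.21, 10.05 and 9.44 in Ws (-0.66, adjusted p = 0.97). *petG* measured 7.10, 7.14 and 7.10 in *ddm1* and 7.20, 7.62 and 7.93 in Ws (-0.47, adjusted p = 0.99), and all *ddm1* arrays lay below the Ws arrays. *ndhF* measured 5.29, 5.07 and 5.28 in *ddm1* against 5.42, 5.53 and 5.99 in Ws (-0.43, adjusted p = 0.9), again without overlap. The highest change was that of *rbcL*, at 10.38, 11.45 and 10.76 in *ddm1* (0.55, adjusted p = 0.79), where 1 array stood above the rest and another lay among those of Ws. *psaA* measured 9.56, 10.22 and 9.81 in *ddm1* (0.54, adjusted p = 0.98). *psbK*, another small subunit of photosystem II, measured 10.75, 11.02 and 10.91 in *ddm1* and 9.78, 10.81 and 10.94 in Ws (0.39, adjusted p = 1), with 1 Ws array below the rest. *ddm1* arrays lay wholly below the Ws arrays for 8 genes (*psbA*, *psbZ*, *ndhC*, *psbJ*, *psbL*, *petG*, *ndhF* and *ndhE*), or 17.4% of the 46, where 10.6% of all tested probe sets did so. They lay wholly above them for 1, *petD*, where 6.5% of all did so.

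By complex, the *ddm1* medians were 0.03 for photosystem I, -0.13 for photosystem II, -0.12 for cytochrome b6f, -0.06 for the ATP synthase and -0.004 for NDH. Among the reaction center genes, *psbA* measured 12.22, 12.16 and 12.27 in *ddm1*, all just below the Ws arrays (-0.16, adjusted p = 1). *psbD* measured 8.07, 8.37 and 8.24 in *ddm1* (0.03) and overlapped Ws. *psaB* measured 13.01, 13.09 and 13.26 in *ddm1* (0.01), with arrays to either side of those of Ws.

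Higher after TSA were 4 of 46 genes, or 8.7%, where 7.14% of all tested probe sets were higher, and lower was 1, or 2.17%, where 7.35% were lower. The first share is near the background and the second below it, and neither was tested against it. The median change of the 46 was -0.01, beside 0.02 over all tested probe sets. At an unadjusted p under 0.05, 7 were higher and 4 lower, where 14.4% and 14.1% of all tested probe sets were, and 45 of 46 lay within 2-fold of Ws.

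*ycf3* had the smallest adjusted p of these. Its values were 8.69, 8.92 and 9.34 after TSA against 7.89, 8.20 and 8.03 in Ws, so that the lowest TSA array lay above the highest Ws array (0.94, SE 0.16, adjusted p = 0.0034). *ycf4*, the other assembly gene, went the opposite way, with 8.46, 8.40 and 8.50 after TSA against 9.0, 9.57 and 9.22 in Ws (-0.81, SE 0.23, adjusted p = 0.041), also without overlap. *ndhB* rose the most, to 5.11, 6.33 and 5.74 from 4.17, 4.84 and 4.66 (1.17, SE 0.29, adjusted p = 0.023), with TSA arrays that were spread over more than 1 log2 unit but all above Ws. *psbD*, for the D2 protein, measured 8.71, 9.10 and 9.10 after TSA, above all Ws arrays (0.78, SE 0.21, adjusted p = 0.032). *petD*, for subunit IV of the cytochrome b6f complex, measured 4.84, 5.70 and 5.49 after TSA, its lowest array barely above the highest Ws array (0.74, SE 0.20, adjusted p = 0.034). When each of the 6 Ws and TSA arrays was left out in turn, *ycf3* passed in 6 of 6 fits, *ndhB* in 4, *petD* and *psbD* in 2 each and *ycf4* in 1. Without TSA replicate 2, or without Ws replicate 1, *ycf3* was the only gene left higher, and *ycf4* passed only without Ws replicate 1. In a fit of the Ws and TSA arrays alone, *ndhB* (adjusted p = 0.095), *psbD* (0.053) and *petD* (0.13) lost their calls, *ycf3* (0.038) and *ycf4* (0.036) kept theirs, and *psbN* (0.031) and *rbcL* (0.035) passed. The t-test named in the methods called 0 of the 46 in this comparison.

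**Figure D4:**
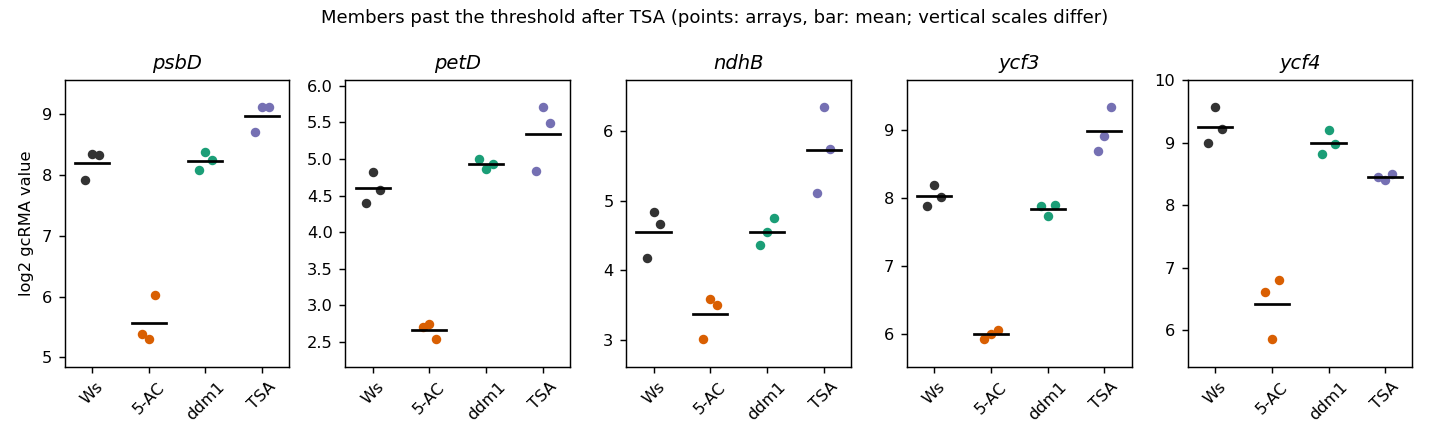
Log2 gcRMA values (vertical axis, own scale for each gene) of the 5 genes past the threshold after TSA, by group (horizontal axis); points are the 3 arrays of a group and bars their mean. *psbD*, *petD*, *ndhB* and *ycf3* lie above Ws after TSA and *ycf4* below it, and all 5 lie below Ws after 5-AC.

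Short of the threshold in the fit of all arrays came *psbN*, with 7.07, 6.98 and 7.03 after TSA and 5.94, 6.48 and 6.20 in Ws (0.82, adjusted p = 0.067). *rbcL* lay above Ws in each TSA array, at 11.08, 11.04 and 10.92, with a change of 0.69 (adjusted p = 0.11). *petL* measured 9.85, 9.89 and 10.24 after TSA and 10.46, 10.73 and 10.51 in Ws (-0.58, adjusted p = 0.092). *petN* measured 6.56, 7.09 and 7.02 after TSA and 7.64, 7.46 and 7.29 in Ws (-0.58, adjusted p = 0.094). For both of these small cytochrome b6f subunits all TSA arrays lay below the Ws arrays. In all, TSA arrays lay wholly above Ws for 10 genes, or 21.7%, where 19.2% of all tested probe sets did so. They lay wholly below Ws for 6 genes, or 13.0%, where 15.4% did so.

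The genes that share a transcription unit with those past the threshold did not pass it themselves. Beside *ycf4*, the changes were 0.02 for *psaI*, -0.65 for the envelope protein gene *cemA* and -0.40 for *petA*. Beside *psbD*, they were 0.48 for *psbC* and 0.08 for *psbZ*. Beside *petD*, the change of *petB* was 0.16 and that of *psbB*, at the other end of the unit, -0.28. The 6 ATP synthase genes, with changes of -0.38 to -0.04, all stayed short of the threshold. *psbA* measured 12.02, 12.02 and 12.17 after TSA, below each Ws array by a small margin (-0.31, adjusted p = 0.23).

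Set directly against 5-AC, TSA seedlings had higher values for all 46 genes (adjusted p under 0.05), where 23.9% of all tested probe sets were higher. The changes ran from 0.52 (*psaJ*, adjusted p = 0.046) to 4.85 (*rbcL*), with a median of 2.37, and the arrays did not overlap for 44 genes, where 28.2% of all probe sets did so in this direction. *psaJ* and *ndhD* overlapped. Against *ddm1*, 5-AC seedlings had lower values for all 46 genes, where 25.8% of all tested probe sets were lower. These changes ran from -4.70 (*rbcL*) to -0.54 (*psaJ*), with a median of -2.33 and with 0 overlapping genes, where 29.2% of all probe sets were lower without overlap. The 3 comparisons with Ws use the same Ws arrays, and those with 5-AC the same 5-AC arrays.

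Other plastid genes also fell after 5-AC, by less at the median. Of the 31 other plastid probe sets, which include the ribosomal protein, RNA polymerase and metabolic genes, 28 were lower and 0 higher. Of all tested probe sets, 26.3% were lower and 30.9% higher, and the median of the 31 was -1.55. The 4 genes of the plastid-encoded RNA polymerase, which reads most photosynthesis genes, were all lower, with a median of -1.57. The 3 that did not pass were the ribosomal protein genes *rpl2*, *rpl23* and *rps4*, at -0.36, -0.52 and -0.18. After TSA 12 of the 31 were higher and 0 lower, where 7.14% and 7.35% of all tested probe sets were. The median was 0.56, and *rpoB*, for the beta subunit of that polymerase, was among the 12 (1.51, limma, adjusted p = 0.0061). Of the 4 polymerase genes only 1 passed, and their changes ranged from 0.55 to 1.51. The difference between the 46 and the 31 was not tested. In *ddm1* 0 of the 31 passed in limma, where 1.57% of all tested probe sets did.

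Of 20 tested probe sets of mitochondrial genes, 5 were lower and 2 higher after 5-AC, with a median of 0.02. Of all tested probe sets, 26.3% were lower and 30.9% higher. After TSA 16 were higher and 1 lower, with a median of 2.08, where 7.14% and 7.35% of all were. Of 23 mitochondrial probe sets, tested or not, 8 lay near the floor in Ws. Several had means under the filter value of 3 in Ws, 5-AC and *ddm1* but not after TSA, such as 2.56, 2.54 and 2.48 against 8.29. Such probe sets could enter the test through their TSA values. The count and median after TSA therefore do not stand for all mitochondrial genes.

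**Figure D5:**
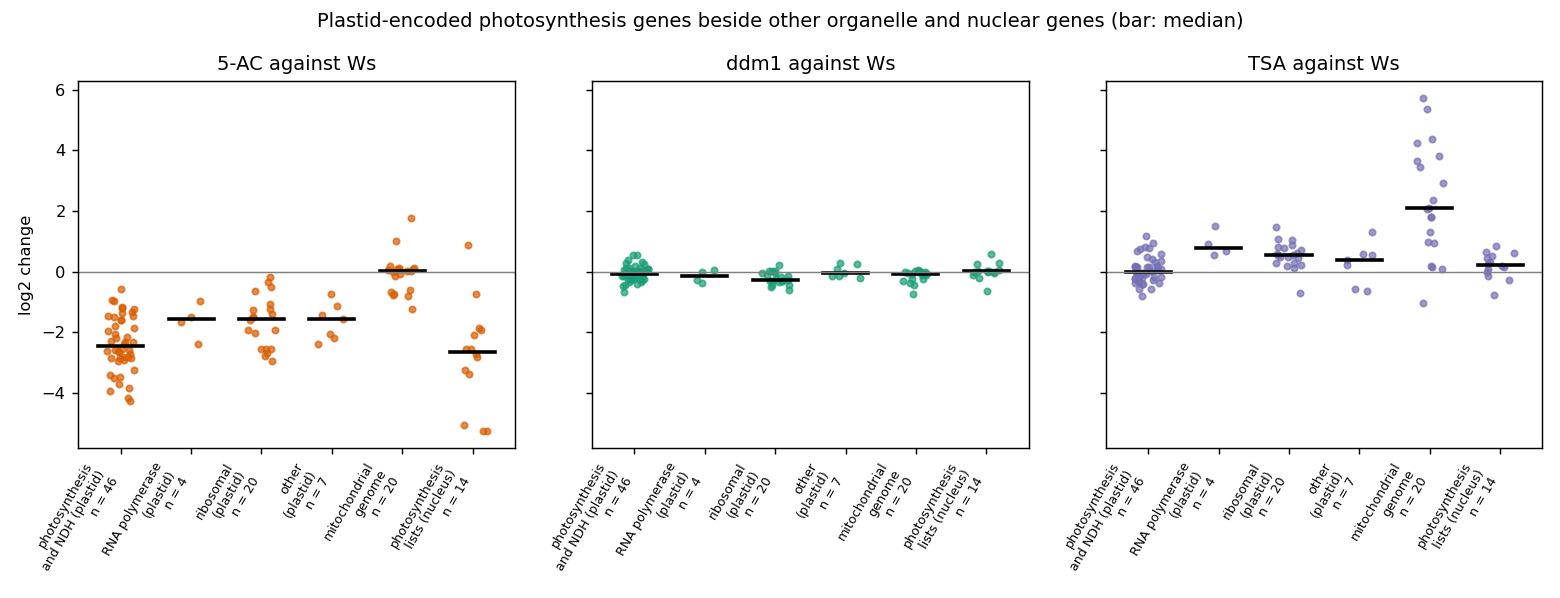
Log2 change against Ws (vertical axis) of the 46 genes beside other plastid genes, mitochondrial genes and matched nuclear photosynthesis genes (horizontal axis), after 5-AC, in *ddm1* and after TSA; each point is 1 probe set and bars are medians. The 46 genes have medians of -2.46, -0.06 and -0.01 in the 3 panels, and the mitochondrial genes 0.02, -0.07 and 2.08.

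Few nuclear genes of the same complexes were named in the platform's table, so their lists were covered only in part. Of 19 photosystem I genes 2 were matched, *PSAE-1* and *PSAN*, which encode small extrinsic subunits. After 5-AC they changed by -2.73 (SE 0.65) and -3.39 (SE 0.42), with *PSAE-1* spread from 8.67 to 12.20 over the 5-AC arrays. Of 27 photosystem II and antenna genes 5 were matched and 4 were lower, with the antenna gene *LHCB4.2* at -5.26 (SE 0.84). The 5-AC arrays of *LHCB4.2* were widely spread, from 3.25 to 7.75, so the size of its fall is uncertain. *LHCB4.3* was at -0.72 (limma, adjusted p = 0.12). Of the nuclear NDH list 4 probe sets were matched and all 4 were lower, from -5.24 for *NDHN* to -2.53 for *PIFI*. *NDHN* lay at 2.46 to 2.61 after 5-AC, near the floor, so its value depends on the background level. Of 12 genes for the cytochrome b6f complex, electron carriers and ATP synthase 2 were matched. *ATPC1*, for the main gamma subunit of the ATP synthase, was lower at -1.91, and its paralog *ATPC2* was higher at 0.89. None of these nuclear genes passed the threshold in *ddm1* or after TSA. The list of nuclear genes for plastid transcription, with sigma factors and polymerase-associated proteins, had 0 of 29 genes matched and was not analysed here.

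The matched tissue markers did not all move alike after 5-AC. *RCA*, the 1 matched green tissue marker of 8, lay at 10.8 to 12.8 after 5-AC, against 13.5 to 13.9 in Ws (-2.10). Of 9 root markers 3 were matched, and their summed level lay at 11.9 to 12.1 after 5-AC against 12.4 to 12.9 in Ws, with *EXPA7* (-2.40) and *EXPA18* (-2.73) near the floor after 5-AC and *PYK10* at -0.52. *FDH*, the 1 matched shoot epidermis marker of 6, changed by 0.24 (adjusted p = 0.59). *SAG29*, a sugar transporter gene induced in senescing leaves and the 1 matched senescence marker of 6, lay at 10.2 to 11.4 after 5-AC against 2.84 to 2.89 in Ws. In *ddm1* and after TSA *RCA* lay at 13.6 to 13.9 and *SAG29* at 2.45 to 2.92. The part of tissue makeup and of senescence in the plastid values was not tested.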

How the data were processed

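The values analysed are the deposited log2 intensities of 12 arrays, which the authors made with gcRMA (background by probe sequence, quantile normalization, 1 value per probe set). The genome build is not given in the sources used here, and the platform's table gave the genes, with 13513 probe sets for 1 gene, 503 for several and 8730 not named, and by RefSeq. The *DDM1* gene was not named there and was not analysed here. Transcription units were assigned from general knowledge. After removal of 64 controls from 22810 probe sets, the 17129 whose second-highest value was at least 3 were tested. Linear models with 1 coefficient per group and no covariate were fitted to the 12 arrays together by lmFit and eBayes of limma 3.58.1 (R 4.3.3, two-sided), with Benjamini-Hochberg adjustment over all 17129 and a threshold of 0.05, and were tested on simulated data. The study's methods name an unequal-variance t-test, which was run as an alternative. Other tables and plots used Python 3.11.15, pandas 2.3.3, numpy 2.4.6 and matplotlib 3.10.9. Near the ceiling or the floor means that every array of a group had the probe set above its 99th or below its 25th percentile.

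The genes and lists were chosen with earlier results of these data known. By the rule for named genes, any of the 46 could be named, values by array were given for a fixed set of reaction center, core subunit and assembly genes and for the 3 lowest and 3 highest changes against Ws, in the comparisons where they are described, and at most 3 were named from each other list. The 3 plastid genes that did not pass the threshold after 5-AC, and *cemA*, were named after their values were seen. Same-numbered arrays deviated together in *ddm1* and Ws (r = 0.228 to 0.521) and in 5-AC and *ddm1* (0.107 to 0.257). In TSA and 5-AC this was less clear. Same-numbered arrays had r = 0.128 to 0.185, others reached 0.19, and 4 of 6 correlated best with their own number. For all these comparisons the replicate block changed no call among the 46. The number of arrays limits the precision. Alternatives were other filters and centrings, the t-test, single-sequence probe sets, fits of 2 groups, the replicate block, percentile ranks, each array left out in turn and, added after the data were seen, the omission of genes near the ceiling and each 5-AC array set alone against Ws.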

Additional observations from a re-analysis of the deposited data

How the results depend on the processing

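The t-test named in the methods, which estimates the spread of each probe set from 6 arrays alone, called fewer results. With it 29 of the 46 genes were lower after 5-AC (4576 probe sets in all), 0 passed in *ddm1* (36 probe sets), 0 were higher and 0 lower after TSA (8 probe sets), 21 were higher after TSA than after 5-AC (3387 probe sets) and 27 were lower after 5-AC than in *ddm1* (5176 probe sets). The direction of the 5-AC fall held under every alternative run, with 45 or 46 genes called lower, except 38 with percentile ranks, the 29 above and 35 of 35 once the genes near the ceiling were left out. The 1 gene lower after TSA, *ycf4*, was called 0 times with no filter on low values, with percentile ranks and with the replicate block. Single-sequence probe sets gave 148 calls in *ddm1*, and the fit of Ws and TSA alone gave 1642 for TSA, with *psbN* and *rbcL* higher in place of *ndhB*, *psbD* and *petD*. Leaving out 1 array at a time, the TSA comparison had 1549 to 2601 probe sets called, 0 to 1 of the 46 genes lower and 1 to 4 higher. The cause of these shifts was not tested.

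Centring on the housekeeping genes *SAND*, *UBC21* and *TIP41-like* shifted the median of all probe sets after 5-AC from 0.05 to -0.20 and the share of calls that were higher from 54.0% to 39.0% (3842 higher, 6014 lower). These 3 genes themselves differed after 5-AC, at 0.14, -0.52 and 1.14, so the centring rests largely on *TIP41-like*. For TSA that share went from 49.3% to 39.1%, and for TSA against 5-AC from 44.9% to 57.9%. The 46 genes were all lower after 5-AC under this centring, with a median of -2.71, and 3 were higher and 1 lower after TSA.

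Same-numbered arrays of Ws did not consistently deviate together with those of 5-AC (r = -0.084 to 0.193) or TSA (-0.064 to 0.242). In these comparisons 2 of 6 and 4 of 6 arrays correlated best with their own number. With the replicate block 46 genes were lower after 5-AC, where 4724 of all tested probe sets were lower (10205 called in either direction). After TSA 4 were higher, where 1419 of all tested probe sets were higher (2895 called in either direction). Array intensities give no depth. They limit the reading of the 11 genes near the ceiling in Ws. The same holds for *ndhF* and the nuclear *NDHN*, near the floor after 5-AC, and for *petD*, close to it.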
